A study of Mus musculus with 15 samples.

Results

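Cytosolic ribosomes are built from ribosomal RNA and a fixed set of proteins, of which the Rpl proteins belong to the large subunit and the Rps proteins to the small one. The genes examined here are the protein-coding genes whose mouse symbol begins with Rpl or Rps and a number, together with Rplp0, Rplp1, Rplp2 and Rpsa, without the S6 kinase genes. The rule found 92 genes among the 21976 protein-coding genes of the 55421 genes that were counted. Of these, 77 encode the core ribosomal proteins. A further 8 are named paralogues of a core gene (Rpl3l, Rpl7l1, Rpl10l, Rpl22l1, Rpl36al, Rpl39l, Rps27l and Rps27rt), and 6 carry a pseudogene-type name but are annotated as protein-coding copies (Rps12-ps3, Rpl9-ps6, Rpl9-ps1, Rpl10-ps3, Rpl36-ps4 and Rpl36a-ps1). The remaining member, Rps19bp1, only shares the name and encodes a protein that binds RPS19. In all, 86 members, all 77 core genes among them, had enough counts to be tested, and 6 (Rpl10l, Rpl36al, Rpl9-ps1, Rpl10-ps3, Rpl36-ps4 and Rpl36a-ps1) did not. Fau and Rack1, which also encode a ribosomal protein or a fusion with one, do not match the rule and are described with the related genes.

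The RNA came from posterior eyecups, the retinal pigment epithelium (RPE), choroid and sclera without the neural retina, of C57BL/6J mice of both sexes aged 2.5 months. There were 4 WT mice, 6 mice heterozygous for the FUN025 mutation of Tmem135 (FUN025/+) and 5 homozygous mice (FUN025/FUN025), with 1 library per mouse. Levels are CPM, a gene's counts per 1000000 of a library's counts as scaled by the TMM method, as the mean ± SD with n = 4, 6 and 5. Changes are log2 fold changes with their SE from edgeR's quasi-likelihood fit over 18979 genes, and a gene is said to rise or fall where its Benjamini-Hochberg adjusted p is under 0.05. Both mutant genotypes were compared with the same 4 WT mice, so their agreement is not independent.

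Total counts were 18094977 to 20029919 in WT, 10903183 to 13456349 in FUN025/+ and 11053535 to 15038383 in FUN025/FUN025 libraries, so every WT library was deeper than every mutant library. The limit that a count of 0 allows (3 counts) was 0.15 to 0.28 CPM, for counting error alone. RPE markers summed to 16461 to 20092 CPM in WT, 16352 to 21582 in FUN025/+ and 16068 to 20465 in FUN025/FUN025 mice, and none of the 7 was called in either comparison with WT. The eyecups also held striated muscle RNA (6439 to 12154 CPM in WT, 3459.8 to 9016 in FUN025/+ and 5304 to 6542 in FUN025/FUN025 mice, summed over 17 markers, with Acta1 and Myh1 lower in both mutant genotypes, Tnni2 in FUN025/+ and Myh2 in FUN025/FUN025). Rod markers, which a dissection without neural retina should leave near 0, summed to 364 to 2592, 189.5 to 803 and 189 to 526 CPM. All 12 rod markers lay below 0 in both genotypes (medians -1.79 and -1.89 on the log2 scale), 11 of them with an unadjusted p under 0.05 in each, and 1 was called, Rom1, lower in FUN025/FUN025 mice. Of the 6 endothelial markers, 2 fell in FUN025/+ and 5 in FUN025/FUN025 mice, where 6.61% and 7.02% of all genes tested fell. Tmem135 was counted at 63.96 ± 2.99, 75.04 ± 7.3 and 88.3 ± 4.57 CPM, and since counts per gene do not show the FUN025 point mutation, they do not check the genotypes.

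Cells make ribosomal proteins in matched amounts, and vertebrate ribosomal protein mRNAs share a feature that lets their translation be set together: they begin with a C followed by a run of pyrimidines (C or T), the 5′ terminal oligopyrimidine or TOP motif. The mTOR pathway acts on the translation of such mRNAs more than on their amount, and only the amount was measured here. The starts of several members are shown first, because a run of pyrimidines lies near the start of some mRNAs that fell and of some that rose. A run in such a window need not be at the first base of the mRNA, and in Rps12 and Rps2 it lies after the RefSeq start. Each sequence covers 30 bases around the RefSeq start, from 10 before it to 20 from it onward, with the first run of C followed by at least 5 pyrimidines in capitals.
Rps12: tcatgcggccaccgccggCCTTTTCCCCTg
Rplp2: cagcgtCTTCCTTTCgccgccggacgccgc
Rpl35: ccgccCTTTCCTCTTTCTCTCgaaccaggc
Rps27: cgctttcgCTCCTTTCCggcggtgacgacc
Rpl15: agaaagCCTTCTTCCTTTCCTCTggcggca
Rps2: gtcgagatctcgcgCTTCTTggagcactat
Rplp0: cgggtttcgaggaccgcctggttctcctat
Rpl3l: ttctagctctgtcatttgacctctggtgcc
In GRCm38.p6 these windows lie at chr10:23787190-23787219 (Rps12, minus strand), chr7:141447641-141447670 (Rplp2, plus strand), chr2:39005112-39005141 (Rpl35, minus strand), chr3:90213629-90213658 (Rps27, minus strand), chr14:18270967-18270996 (Rpl15, minus strand), chr17:24720053-24720082 (Rps2, plus strand), chr5:115559457-115559486 (Rplp0, plus strand) and chr17:24727816-24727845 (Rpl3l, plus strand). The first 4 are starts of mRNAs that fell, Rpl15, Rps2 and Rplp0 of mRNAs that rose, and Rpl3l of the paralogue that moved most; the windows of Rplp0 and Rpl3l hold no such run. RefSeq starts were given for 66 of the 92 members and 57 of the 77 core genes. A C with at least 5 pyrimidines after it, on the coding strand from 5 bases before the start to 20 from it onward, was present in 30 of the 57 core genes (52.6%) and in 19.5% of all 27025 genes with a start. In FUN025/+ mice 15 of the 30 core genes with a run and 10 of the 27 without one fell, and in FUN025/FUN025 mice 13 and 9 did, where 6.61% and 7.02% of all genes tested fell. The window was chosen with the changes known, and a missing match says only that the run is not in these bases.

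More core ribosomal protein mRNAs fell than rose in both mutant genotypes, by a small amount that differed from gene to gene. In FUN025/+ mice 33 of the 77 fell and 3 rose, where 13.7% of all genes tested passed the threshold, 6.61% fell and 7.09% rose. In FUN025/FUN025 mice 30 fell and 3 rose, where 14.0% of all genes passed, 7.02% fell and 7.03% rose. The median change of the 77 was -0.14 in FUN025/+ and -0.13 in FUN025/FUN025 mice on the log2 scale, beside -0.00234 and -0.00707 over all genes. Values below 0 were found for 56 and 57 of the 77, where 50.5% and 51.4% of all genes lay below 0. In whole tissue, fewer cells rich in these mRNAs and less of them per cell cannot be told apart.

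The WT and mutant mice did not overlap for 31 core genes in FUN025/+ and 32 in FUN025/FUN025 mice, where 10.9% and 14.8% of all genes did not overlap. Both subunits took part: 21 of 46 large-subunit genes fell in FUN025/+ and 20 in FUN025/FUN025 mice (medians -0.11 and -0.12), and 12 and 10 of 31 small-subunit genes did (medians -0.16 and -0.14). Of the 34 core genes that fell in either genotype, 29 passed the threshold in both. All 3 that rose did so in both.

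Added together, the 77 core genes took 15250.3, 15639.7, 16282 and 18024 CPM in the WT mice. They took between 14436 and 15957 CPM (median 14868) in FUN025/+ mice and 14329, 15060.4, 15072, 15406 and 15894 in FUN025/FUN025 mice. The sums of the groups overlapped, and the highest was that of WT replicate 4. Without this mouse the median change was -0.07 in FUN025/+ and -0.07 in FUN025/FUN025 mice, and 24 and 21 core genes fell. Of all 19156 genes tested without it, 576 and 653 fell, beside 1255 and 1332 of 18979 with all mice. WT replicate 4 was also the WT mouse with the most striated muscle RNA and with the highest RPE, endothelial, macrophage and red blood cell marker sums. With every library thinned to the smallest total, 31 and 28 core genes fell, where 1026 and 1074 of all 18468 genes did. With the muscle and rod marker levels as covariates, the medians were -0.28 and -0.25, 17 and 20 core genes fell and 0 rose in either genotype. Calls were fewer over all genes too in that fit, where 121 and 302 of 18979 fell and 161 and 393 rose.

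**Figure D1:**
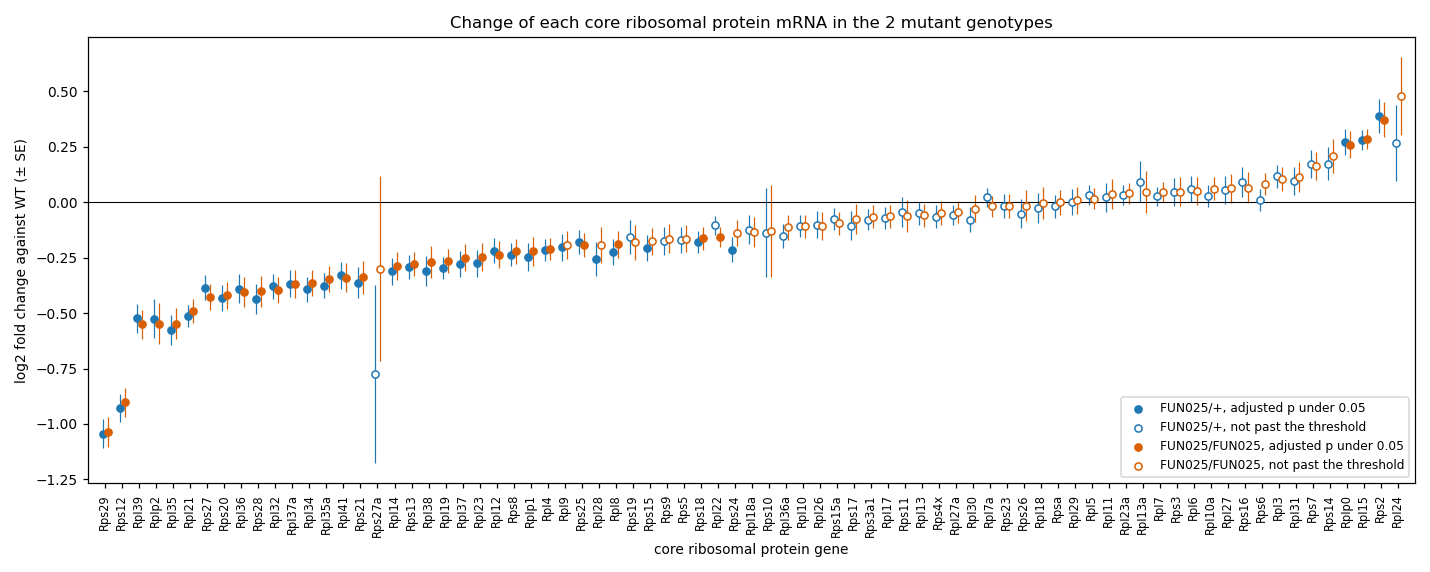
The log2 fold change against WT (vertical axis, bars are the SE) of each of the 77 core ribosomal protein genes (horizontal axis, ordered by the change in FUN025/FUN025 mice), with filled points past an adjusted p of 0.05. Most filled points lie below 0 in both genotypes, Rps29 and Rps12 lie farthest below, and Rplp0, Rpl15 and Rps2 are the only filled points above 0.

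FUN025/FUN025 and FUN025/+ mice did not differ beyond their spread in any core gene: 0 of 77 passed the threshold in edgeR's quasi-likelihood test, where 0.522% of all genes did (0.195% lower and 0.327% higher), 0 had an unadjusted p under 0.05, and DESeq2's Wald test called 0. The median difference was 0.01 on the log2 scale.

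Rps29 encodes a small zinc-binding protein of the small subunit, and it was the core gene that fell farthest. Its mRNA stood at 158, 167, 168 and 196 CPM in the WT mice. It stood between 75.4 and 96.5 (median 83.01) in FUN025/+ mice and at 81.6, 82.1, 82.8, 83.1 and 90.8 in FUN025/FUN025 mice. Every mutant mouse was below every WT mouse, and the means (172 ± 16.4, 83.7 ± 7.45 and 84.1 ± 3.82 CPM) gave log2 fold changes of -1.04 ± 0.066 (SE, adjusted p = 1.58e-08) and -1.04 ± 0.069 (adjusted p = 2.55e-08). It was the only core gene to pass a change beyond 1, which 1.45% and 1.63% of all genes did. The gene (ENSMUSG00000034892) lies at chr12:69157722-69159186, minus strand in GRCm38. Of its sequence, 39.2% of stretches of 31 bases also occur in other genes. Its 6 copies held 2.56 ± 0.037 CPM together in WT, 1.72 ± 0.219 in FUN025/+ and 1.84 ± 0.159 in FUN025/FUN025 mice.

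Rpl39, Rplp2, Rpl35 and Rpl21 followed among the genes with the largest falls, all of the large subunit. RPL39 is a very small protein of the tunnel through which the new peptide leaves. Rpl39 stood at 97.3, 99.6, 105 and 123 CPM in WT mice, between 68.6 and 79.2 (median 73.4) in FUN025/+ mice and at 68.4, 68.8, 72.95, 73.9 and 79.01 in FUN025/FUN025 mice, so that all 11 mutant mice were below all 4 WT mice (log2 fold changes -0.52 ± 0.065 and -0.55 ± 0.067, edgeR adjusted p = 3.63e-05 and 2.86e-05). Among its copies the processed pseudogene Gm12013 fell from 4.65 ± 0.74 CPM in WT to 0.0933 ± 0.122 and 0.0544 ± 0.122, under the floor in both mutant genotypes (adjusted p = 6.69e-07 and 5.57e-07).

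RPLP2 is an acidic protein of the stalk that recruits elongation factors. Rplp2 stood at 145, 158, 161 and 193 CPM in WT mice, between 99.1 and 128 (median 115) in FUN025/+ mice and at 95.4, 104, 118, 119.7 and 125 in FUN025/FUN025 mice (log2 fold changes -0.53 ± 0.087 and -0.55 ± 0.091, edgeR adjusted p = 0.000859 and 0.000768). No mutant mouse reached the WT range, although the mutant values spread more than those of Rps29. Rplp1, its partner in the stalk, also fell, from 503 ± 52.6 CPM to 424 ± 23.7 and 431 ± 25.00 (log2 fold changes -0.25 and -0.22, edgeR adjusted p = 0.0162 and 0.0338). With muscle and rod covariates the changes were -0.88 and -0.87 for Rplp2 (edgeR adjusted p = 0.00588 and 0.00162) and -0.51 and -0.45 for Rplp1 (adjusted p = 0.0304 and 0.0206). Rplp0, which anchors the stalk, rose, as described with the genes that rose. The 3 mRNAs of the stalk thus did not all move in 1 direction.

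Rpl35 stood at 109.7, 112, 126 and 140.2 CPM in WT mice, between 77.8 and 86.7 (median 80.8) in FUN025/+ mice and at 74.6, 80.9, 82.2, 88.7 and 91.3 in FUN025/FUN025 mice (log2 fold changes -0.58 and -0.55, SE 0.068 and 0.071, edgeR adjusted p = 2.05e-05 and 4.8e-05). Rpl21 stood at 92.8, 96.9, 99.97 and 111, between 66.5 and 72.6 (median 71.2) and at 67.4, 69.4, 72.2, 72.4 and 75.9 CPM (log2 fold changes -0.51 and -0.49, SE 0.052 and 0.054, edgeR adjusted p = 3.13e-06 and 7.9e-06). For both genes the WT and mutant mice did not overlap. The copies of Rpl35 held 1.09 ± 0.295, 1.32 ± 0.301 and 1.09 ± 0.278 CPM in the 3 groups and those of Rpl21 18.5 ± 1.91, 19.4 ± 1.41 and 17.98 ± 0.74. Exons of Arpc5l and Wdr38 cover 66.2% of the exons of Rpl35, and how reads there were counted is not known. The other genes that fell in both genotypes, Rps12 and Rps27 apart, had log2 fold changes between -0.44 and -0.16.

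Rps2, Rpl15 and Rplp0 rose in both genotypes. RPS2 lies near the entry channel of the mRNA on the small subunit. Rps2 stood at 252, 269, 293 and 318 CPM in WT mice, between 344 and 403 (median 369.6) in FUN025/+ mice and at 319.6, 331, 384, 395 and 401 in FUN025/FUN025 mice (log2 fold changes 0.39 ± 0.077 and 0.37 ± 0.079, edgeR adjusted p = 0.00249 and 0.00458). Its groups did not overlap, but the lowest FUN025/FUN025 mouse was close to the highest WT mouse. Rpl15, a large-subunit gene, stood at 135, 140.2, 141 and 144 CPM in WT mice, between 162 and 181 (median 168) in FUN025/+ mice and at 161, 170.1, 172, 175 and 175 in FUN025/FUN025 mice (log2 fold changes 0.28 and 0.29, SE 0.045 and 0.046, edgeR adjusted p = 0.00045 and 0.000479), again without overlap.

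Rplp0 is often used as a reference gene in quantitative PCR, and the study used it so. It stood at 429, 447, 467 and 482 CPM in WT mice, between 509 and 624 (median 545) in FUN025/+ mice and at 509.9, 529.6, 546, 568 and 577 in FUN025/FUN025 mice, and no mutant mouse was as low as a WT mouse (log2 fold changes 0.27 ± 0.06 and 0.26 ± 0.062, edgeR adjusted p = 0.00553 and 0.00982). Between the mutant genotypes its difference was -0.01 ± 0.056 (adjusted p = 1). The study's quantitative PCR compared only FUN025/FUN025 with FUN025/+ mice and included no WT mice. The study's primers for this gene, printed 5′ to 3′, locate the measured stretch.
Rplp0 forward: ggacccgagaagacctcctt
Rplp0 reverse: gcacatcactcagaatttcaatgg
They match bases 512 to 531 and, on the opposite strand, 573 to 596 of a Rplp0 transcript of 1358 bases in GENCODE M21, and bound a stretch of 85 bases. The forward primer also matches 1 and the reverse primer 6 other annotated genes exactly, with no other gene matched by both. With muscle and rod markers as covariates the log2 fold changes of Rps2, Rpl15 and Rplp0 were 0.05, 0.13 and 0.17 in FUN025/+ and 0.07, 0.16 and 0.17 in FUN025/FUN025 mice, and none passed the threshold (edgeR adjusted p = 0.274 to 0.889). In that fit 282 and 695 of all 18979 genes passed, beside 2600 and 2666 without the covariates.

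**Figure D2:**
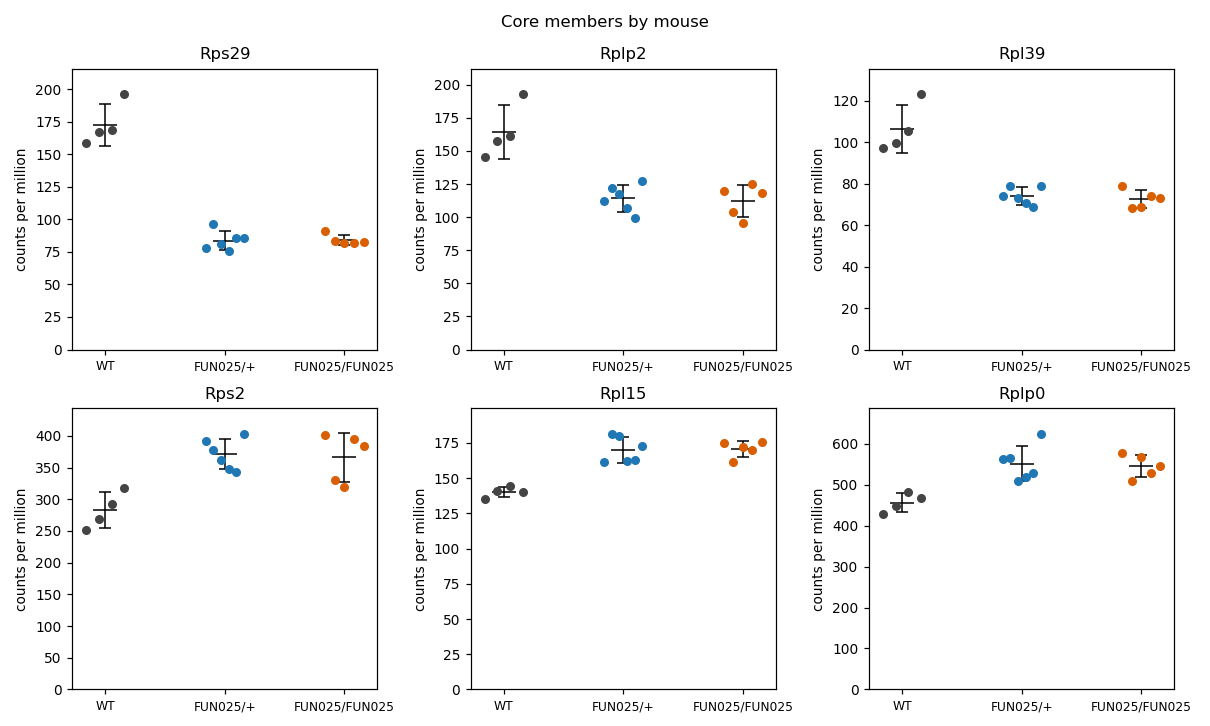
CPM (vertical axis, from 0) of 6 core genes in each mouse, by genotype, with the mean and SD in black. Rps29, Rplp2 and Rpl39 are lower and Rps2, Rpl15 and Rplp0 higher in every mutant mouse than in every WT mouse.

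Rpsa, Rps6, Rpl5 and Rpl11 did not pass the threshold in either mutant genotype. RPSA also serves as a laminin receptor, RPS6 is the substrate of the S6 kinases, and RPL5 and RPL11 form with 5S RNA the particle that binds MDM2 when ribosome assembly fails. Their means were 316 ± 22.5, 312 ± 12.7 and 316 ± 18.02 CPM (Rpsa), 229 ± 14.5, 230.2 ± 9.33 and 242 ± 10.2 (Rps6), 310.1 ± 11.9, 317 ± 11.4 and 313 ± 13.4 (Rpl5) and 202 ± 19.4, 204 ± 15.3 and 207 ± 13.1 (Rpl11) in WT, FUN025/+ and FUN025/FUN025 mice. The largest of their 8 log2 fold changes was 0.08 ± 0.051 (Rps6 in FUN025/FUN025, edgeR adjusted p = 0.307), and their groups overlapped throughout. With an offset for GC content Rps6 passed in FUN025/FUN025 mice (0.19, adjusted p = 0.0112). In all, 40 core genes passed the threshold in neither genotype.

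Per 1000 coding bases, a rough scale because reads from untranslated regions are counted too, Rpl24, Rps10 and Rpl13a stood at 3.27, 9.11 and 18.8 CPM in WT mice, while the lowest of the other 74 core genes, Rpl29, stood at 199.6. These mRNAs encode proteins that every ribosome holds. Exons of other annotated genes cover 46.99%, 28.7% and 35.4% of their exons, and 3 of those overlapping genes (Gm28037, RPS10-NUDT3 and Gm45713) were listed at 0 in all 15 libraries. Such overlap does not by itself set these 3 members apart. It is larger for Rpl35 (66.2%) and Rpl23a (62.3%), which were not counted that low. What lowered the counts was not tested. For Rps10 the processed copy Rps10-ps2 was counted at 49.1 ± 3.35 CPM in WT, 63.7 ± 3.32 in FUN025/+ and 65.9 ± 7.99 in FUN025/FUN025 mice, above Rps10 itself (4.51 ± 1.23, 4.08 ± 0.834 and 4.13 ± 0.992). The levels of these 3 members in the files are therefore uncertain. None was called as deposited, but with copies counted together, an alternative added after the data were seen, Rps10 (0.32 and 0.36, edgeR adjusted p = 0.00186 and 0.000858) and Rpl24 (0.50 and 0.48, adjusted p = 0.0226 and 0.0315) were higher in FUN025/+ and FUN025/FUN025 mice.

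The falls were largest among the core genes with short coding sequences. Among the 16 core genes with a coding sequence of up to 350 bases, 13 fell in FUN025/+ and 13 in FUN025/FUN025 mice, with median changes of -0.37 and -0.34. Among the 20 genes over 350 and up to 450 bases the medians were -0.17 and -0.17, among the 19 over 450 and up to 600 bases -0.12 and -0.13, and among the 22 over 600 bases 0.015 and 0.0074. All 3 core genes that rose belong to the last class, in which 4 fell. Spearman's rho between coding length and change was 0.584 and 0.58 across the 77 genes, a description over genes that share their libraries. For the other protein-coding genes the medians in the same 4 length classes (542, 522, 888 and 12972 genes) were -0.03, -0.03, -0.02 and -0.02 in FUN025/+ and -0.04, -0.03, -0.03 and -0.02 in FUN025/FUN025 mice. The share of them that fell was also higher in the shortest class, 12.2% and 11.99%, beside 6.32% and 6.7% in the next class and 7.2% and 7.75% over all of them. The length classes were chosen after the changes were seen.

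Mouse by mouse, the median deviation of the 16 shortest core genes from their means over all mice was 0.13 to 0.47 on the log2 scale in the WT mice, -0.16 to 0.00 in FUN025/+ mice and -0.17 to -0.03 in FUN025/FUN025 mice. The WT mice did not overlap the mutant mice. These medians restate the changes above mouse by mouse. They are no separate test of length, since the classes were chosen after those changes were seen. For the 22 longest core genes the ranges were -0.07 to 0.11, -0.06 to 0.07 and -0.07 to 0.06, and all 3 groups overlapped. With an offset for exonic length in the fit, 32 and 30 core genes fell and 6 and 5 rose.

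**Figure D3:**
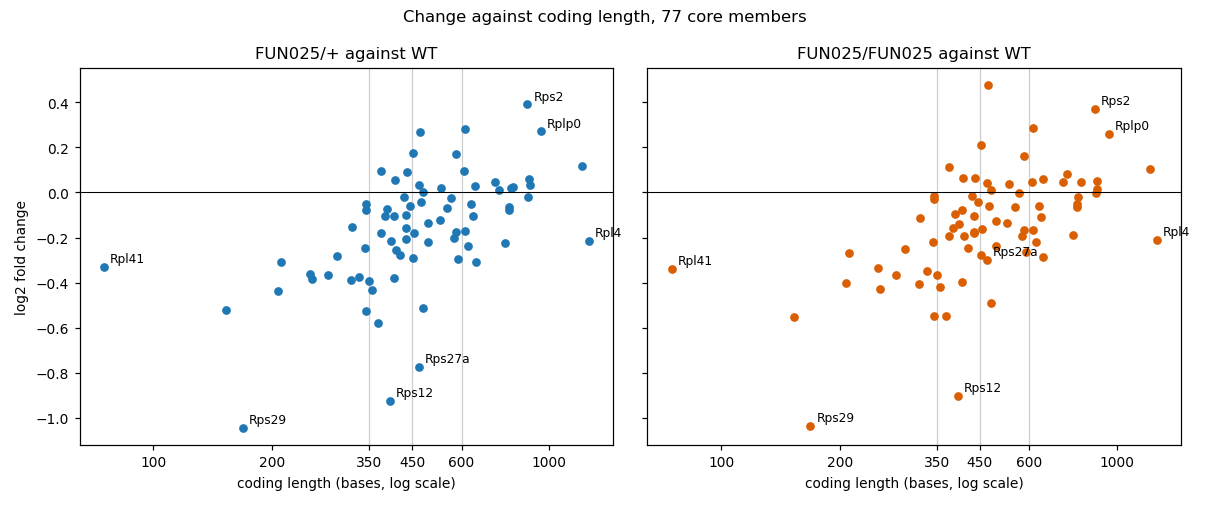
The log2 fold change against WT (vertical axis) of the 77 core genes by coding length in bases (horizontal axis, log scale), in FUN025/+ mice on the left and FUN025/FUN025 mice on the right, with grey lines at 350, 450 and 600 bases. Points to the left of 350 bases all lie below 0, and points to the right of 600 bases lie on both sides of it.

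Of the named paralogues, Rpl3l had the largest change. Rpl3l encodes the form of RPL3 found in skeletal and heart muscle, where it takes the place of the general form. It stood at 27.7, 30.8, 41.7 and 51.4 CPM in WT mice, between 16.3 and 33.3 (median 19.7) in FUN025/+ mice and at 21.2, 22.2, 22.4, 25.8 and 27.3 in FUN025/FUN025 mice. FUN025/+ mice overlapped the WT range and FUN025/FUN025 mice lay just below it. The log2 fold change was -0.75 ± 0.21 in FUN025/+ mice (edgeR adjusted p = 0.0355) and -0.67 ± 0.22 in FUN025/FUN025 mice, which missed the threshold (adjusted p = 0.0627). Leaving out single mice moved the adjusted p of the first between 0.0113 and 0.136, the call was also lost without WT replicate 1 and without each of FUN025/+ replicates 1, 2, 3 and 4, and without WT replicate 4 the change was -0.56 (adjusted p = 0.136). In FUN025/FUN025 mice Rpl3l passed without WT replicate 2 (-0.78, edgeR adjusted p = 0.0447) and without FUN025/+ replicate 5 (-0.67, adjusted p = 0.0366).

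Rpl3l moved with striated muscle RNA from mouse to mouse. Per 1000 CPM of the summed muscle markers there were 4.14 ± 0.139 CPM of Rpl3l in WT, 4.04 ± 0.482 in FUN025/+ and 3.93 ± 0.272 in FUN025/FUN025 mice, ranges that overlapped. With muscle and rod markers as covariates the log2 fold changes were -0.32 and -0.29 (edgeR adjusted p = 0.35 and 0.309). Rpl3 itself was at 399.5 ± 9.57, 434 ± 22.2 and 430.1 ± 26.7 CPM, changes of 0.12 and 0.11 that did not pass the threshold (edgeR adjusted p = 0.137 and 0.2), although with an offset for exonic length Rpl3 passed in FUN025/+ mice (0.15, adjusted p = 0.0456). For each 100 counts of Rpl3 there were 9.46 ± 2.6 of Rpl3l in WT, 5.21 ± 1.54 in FUN025/+ and 5.54 ± 0.598 in FUN025/FUN025 mice.

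Rpl22l1, whose protein can replace RPL22 and whose mRNA RPL22 is known to restrain, fell in both genotypes. It stood at 40.4, 41.6, 42.5 and 44.7 CPM in WT mice, between 29.4 and 36.03 (median 34.04) in FUN025/+ mice and at 24.7, 31.5, 31.6, 36.8 and 38.7 in FUN025/FUN025 mice (log2 fold changes -0.33 ± 0.09 and -0.37 ± 0.094, edgeR adjusted p = 0.0222 and 0.014). No mutant mouse reached the WT range. Without WT replicate 4 the changes were -0.29 and -0.34 and missed the threshold (edgeR adjusted p = 0.0846 and 0.0538), while with muscle and rod covariates they were -0.80 and -0.80 (adjusted p = 0.0104 and 0.00324). Rpl22 was at 171 ± 7.14, 159 ± 5.9 and 153 ± 5.32 CPM; it fell in FUN025/FUN025 mice (-0.16 ± 0.044, adjusted p = 0.023), and its change in FUN025/+ mice was -0.10 ± 0.042 (adjusted p = 0.106). The call of Rpl22 was lost when any of 6 mice was left out (WT replicates 2, 3 and 4 and FUN025/FUN025 replicates 2, 3 and 5), with changes of -0.12 to -0.15. It was also lost with no low-count filter (-0.16, edgeR adjusted p = 0.0693) and with muscle and rod covariates (-0.27, adjusted p = 0.057).

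Rps27l and Rpl7l1 did not pass the threshold. Rps27l, a p53-responsive relative of Rps27, was at 37.1 ± 4.06, 33.3 ± 0.94 and 32.8 ± 3.84 CPM (-0.16 ± 0.078 and -0.18 ± 0.081, edgeR adjusted p = 0.194 and 0.151), and with an offset for exonic length it passed in both genotypes (-0.21 and -0.24). The changes of Rps27l with muscle and rod covariates were -0.44 and -0.43 and did not pass (edgeR adjusted p = 0.127 and 0.066). Rpl7l1, a paralogue of Rpl7 that acts in ribosome assembly, was at 83.3 ± 2.4, 83.7 ± 5.74 and 83.5 ± 4.54 CPM and Rpl7 at 334 ± 15.03, 340.3 ± 8.09 and 345 ± 10.3. Rpl39l, best known from testis, stood near 1 CPM (1.11 ± 0.269, 0.748 ± 0.444 and 1.21 ± 0.619), Rpl36al was at 0.431 ± 0.235, 0.245 ± 0.107 and 0.348 ± 0.277 CPM, close to the floor, and Rpl10l, another testis form, had 0 counts in all 15 libraries. Their partners Rpl36a (103 ± 9.08, 92.3 ± 3.94 and 94.8 ± 4.64 CPM) and Rpl10 (354 ± 18.8, 329 ± 16.6 and 328 ± 14.6 CPM) missed the threshold in both genotypes, although without WT replicate 2 Rpl36a passed in FUN025/+ mice (-0.19, edgeR adjusted p = 0.0325).

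**Figure D4:**
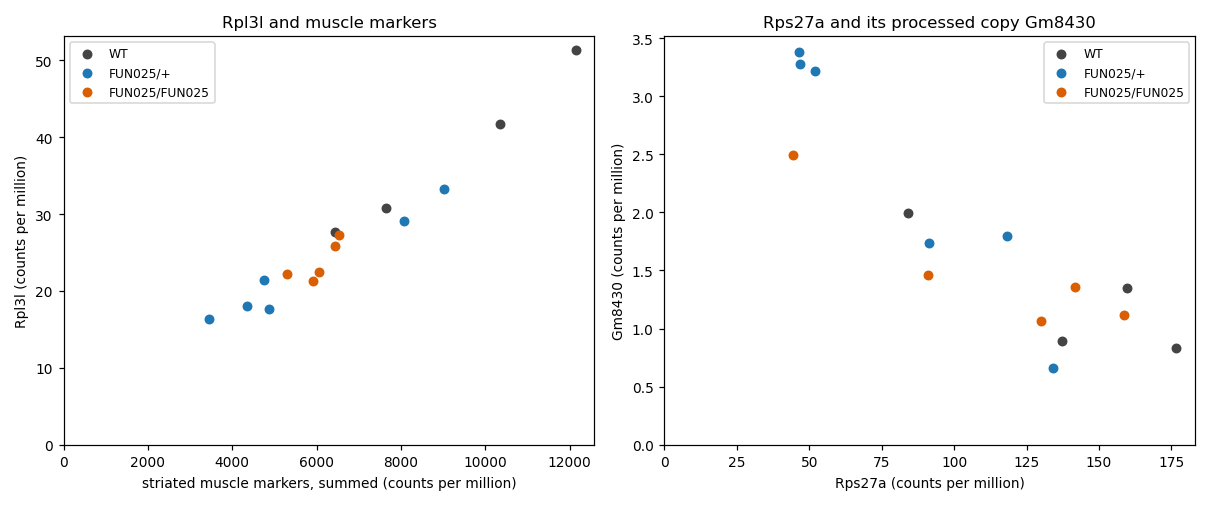
Each point is a mouse, coloured by genotype: on the left Rpl3l (vertical axis, CPM) against the summed striated muscle markers (horizontal axis, CPM), on the right the processed pseudogene Gm8430 against Rps27a, both in CPM. Rpl3l is highest in the mice with the most muscle RNA, and Gm8430 is highest where Rps27a is lowest, in mice of all 3 genotypes.

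Several copies rose while their source genes fell, among them those of the first and second pair below. Neither gene of the third pair passed the threshold. The 3 pairs printed here are a gene and a copy, with the start codon in capitals in the first and second pair and the base that differs in capitals in the third, since reads from identical stretches cannot be assigned to a gene by their sequence.
Rps12: accgccATGgccgaggaaggcatagctgct
Rps12-ps3: accgccATGgccgaggaaggcatagctgct
Rps27: gagaacATGcctctcgcaaaggatctcctt
Rps27rt: gagaacATGcctctcgcaaaggatctcctt
Rps27a: cctcggacactatagAaaatgtaaaggcca
Gm8430: cctcggacactatagGaaatgtaaaggcca
The stretches are read from GENCODE M21 transcripts on GRCm38, from base 152 of the 584 bases of Rps12 and base 76 of Rps12-ps3, base 31 of Rps27 and base 27 of Rps27rt, and base 188 of Rps27a and base 56 of Gm8430. Over their whole alignment, Rps12 and Rps12-ps3 had 0 mismatches in 494 bases, Rps27 and Rps27rt 0 in 341, and Rps27a and Gm8430 1 in 471. Rps12 lies at chr10:23785183-23787275, minus strand, Rps12-ps3 at chr19:59322290-59322783, plus strand, Rps27 at chr3:90212522-90213651, minus strand, Rps27rt at chr9:114982366-114982739, minus strand, Rps27a at chr11:29545846-29548109, minus strand and Gm8430 at chr6:122456904-122457374, plus strand.

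Rps12 had the second largest fall of the core genes. It stood at 157, 161, 170.4 and 199 CPM in WT mice, between 83.8 and 95.6 (median 92.1) in FUN025/+ mice and at 82.99, 90.5, 92.7, 95.1 and 98.4 in FUN025/FUN025 mice (log2 fold changes -0.93 ± 0.063 and -0.90 ± 0.066, edgeR adjusted p = 3.73e-08 and 5.98e-08). Rps12-ps3 rose, from 36.1, 36.4, 36.7 and 40.4 CPM in WT mice to values between 57.8 and 67.3 (median 63.8) in FUN025/+ mice and 54.97, 63.6, 66.2, 68.1 and 71.6 in FUN025/FUN025 mice (log2 fold changes 0.75 ± 0.067 and 0.79 ± 0.069, edgeR adjusted p = 9.64e-07 and 5.1e-07). Neither gene overlapped between WT and mutant mice. For each 100 counts on Rps12 there were 20.3, 21.4, 22.4 and 23.4 on Rps12-ps3 in WT mice, between 63.8 and 80.2 in FUN025/+ mice and 64.6, 66.2, 73.2, 73.4 and 75.3 in FUN025/FUN025 mice.

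Added together, Rps12 and Rps12-ps3 took 193, 197, 207 and 239.8 CPM in WT mice, between 144 and 160.5 in FUN025/+ mice and 138, 157, 161, 162 and 167 in FUN025/FUN025 mice, still without overlap. With all copies counted together with their source genes, Rps12 fell by 0.411 and by 0.372 on the log2 scale (edgeR adjusted p = 0.000271 and 0.000821), less than the fall of Rps12 alone. In that fit Rps29 stood at -1.03 and -1.02. Over the 77 core genes 29 and 26 fell, 7 and 7 rose (Rps2, Rpl15 and Rplp0 with Rps7, Rps14 and the uncertain Rps10 and Rpl24), and the medians were -0.10 and -0.0953.

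Rps27, a small-subunit gene, and its retrotransposed copy Rps27rt showed the same opposite directions at a smaller size. Rps27 stood at 157, 160.5, 165 and 189 CPM in WT mice, between 123 and 137 (median 127) in FUN025/+ mice and at 114, 122, 126, 129 and 133 in FUN025/FUN025 mice (log2 fold changes -0.38 ± 0.055 and -0.43 ± 0.057, edgeR adjusted p = 0.000147 and 6.75e-05). Rps27rt stood at 10.2, 11.2, 11.5 and 12.1 CPM, between 13.04 and 16.3 (median 14.9) and at 13.8, 15.2, 15.7, 16.9 and 18.3 (log2 fold changes 0.41 ± 0.089 and 0.51 ± 0.092, edgeR adjusted p = 0.00528 and 0.00118). Neither gene overlapped between WT and mutant mice, nor did their sum (168 to 200.4 CPM in WT, 138 to 153 in FUN025/+ and 129 to 146 in FUN025/FUN025 mice).

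Rpl9-ps6 rose from 1.85, 2.34, 2.58 and 2.89 CPM in WT mice to values between 3.31 and 4.49 (median 4.4) in FUN025/+ mice and 3.45, 3.54, 4.08, 4.34 and 5.45 in FUN025/FUN025 mice (log2 fold changes 0.78 ± 0.17 and 0.79 ± 0.17, edgeR adjusted p = 0.00445 and 0.00481). Its source gene Rpl9 was at 239 ± 16.2, 208 ± 14.8 and 209 ± 14.2 CPM and fell in FUN025/+ mice (-0.20, adjusted p = 0.035), while -0.19 in FUN025/FUN025 mice missed the threshold (adjusted p = 0.0513). The changes of Rpl9 with muscle and rod covariates were -0.51 and -0.46 and passed in both genotypes (edgeR adjusted p = 0.0135 and 0.00771). The call of Rpl9 in FUN025/+ mice was lost with libraries thinned to equal depth (-0.19, edgeR adjusted p = 0.0649) and with copies counted together (-0.16, adjusted p = 0.0837). The other 4 protein-coding copies had group means of at most 0.496 CPM. With muscle and rod markers as covariates Rpl9-ps6 (0.71 and 0.73) and Rps27rt (0.45 and 0.54) missed the threshold. Rps12-ps3 and Rpl9-ps6 were named after their values were seen. Rps19bp1 was at 13.8 ± 1.72, 11.5 ± 0.867 and 12.2 ± 1.05 CPM and did not pass the threshold (edgeR adjusted p = 0.0623 and 0.21).

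**Figure D5:**
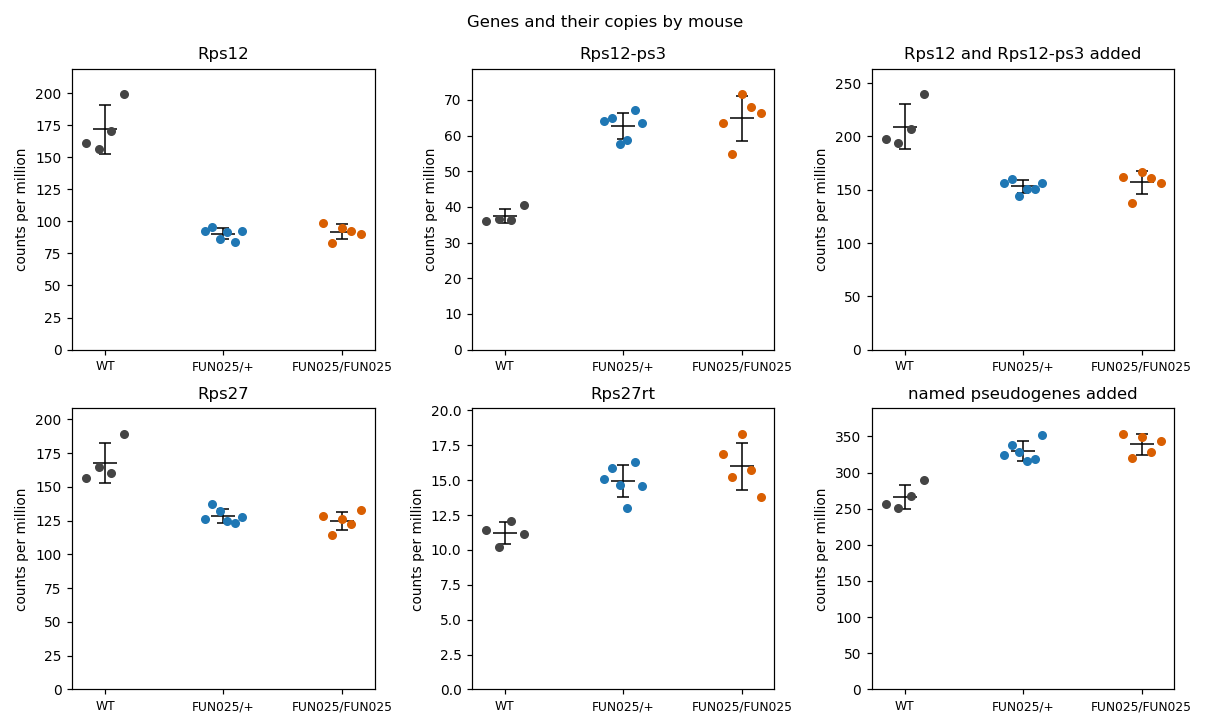
CPM (vertical axis, from 0) in each mouse by genotype, with the mean and SD in black, for Rps12, its copy Rps12-ps3 and their sum, for Rps27 and its copy Rps27rt, and for the sum of the 285 named ribosomal protein pseudogenes. In every panel the WT mice are separate from the mutant mice, lower in mutants for Rps12, the Rps12 sum and Rps27 and higher for the copies.

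Rps27a, which encodes ubiquitin fused to a ribosomal protein, varied among mice of each genotype more than any other well-counted core gene. It stood at 84.1, 137, 159 and 177 CPM in WT mice, at 46.4, 46.7, 52.02, 91.4, 118 and 134 in FUN025/+ mice and at 44.3, 90.8, 130.1, 142 and 159 in FUN025/FUN025 mice. All 3 groups overlapped and no comparison passed the threshold (log2 fold changes -0.78 ± 0.40 and -0.30 ± 0.42 against WT and 0.48 ± 0.38 between the mutant genotypes). In the same mice the processed pseudogene Gm8430, which shares all but 1 of its bases with Rps27a, ran from 0.659 to 3.38 CPM and was highest in the 4 mice with the least Rps27a. Gm8430 did not pass the threshold in FUN025/+ or FUN025/FUN025 mice either (edgeR adjusted p = 0.124 and 0.75). Both genes were singled out after their values were seen.

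Beyond the members, the files list 285 genes with a ribosomal protein pseudogene name and a pseudogene annotation, of which 60 were tested. In FUN025/+ mice 31 of the 60 rose and 5 fell, and in FUN025/FUN025 mice 33 rose and 4 fell, where 7.09% and 7.03% of all genes rose and 6.61% and 7.02% fell (medians 0.57 and 0.72 on the log2 scale). Of the 797 other pseudogenes tested, 169 rose and 59 fell in FUN025/+ and 164 rose and 53 fell in FUN025/FUN025 mice (medians 0.17 and 0.17). The 797 were set apart by name alone and include copies of ribosomal protein genes under other names, such as Gm8430 and Gm12013. The 285 pseudogenes together took 251, 256, 268 and 289 CPM in WT mice, between 316 and 352 (median 326) in FUN025/+ mice and 320.1, 328, 344, 348 and 353 in FUN025/FUN025 mice. These sums did not overlap between WT and mutant mice. Their means were 266 ± 17.05, 329.8 ± 13.3 and 339 ± 13.97 CPM, beside 16299 ± 1226, 15032 ± 624 and 15152 ± 572 CPM for the core genes, whose sums overlapped between groups and were highest in WT replicate 4.

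Of the same 60 the largest rises were those of Rpl3-ps2, Rpl17-ps8, Rps18-ps3 and Rps27a-ps2. Rpl17-ps8 rose from 0.172 ± 0.117 CPM in WT to 0.778 ± 0.252 in FUN025/+ and 0.957 ± 0.148 in FUN025/FUN025 mice, Rps27a-ps2 from 0.882 ± 0.264 to 3.94 ± 0.658 and 3.75 ± 0.0898, and Rps18-ps3 from 0.217 ± 0.104 to 0.888 ± 0.333 and 1.12 ± 0.204. Rpl3-ps2 was under the floor in WT, so that it was at least 4.72-fold higher in FUN025/+ and at least 5.3-fold higher in FUN025/FUN025 mice, against the mean floor of the WT libraries. Among these pseudogenes with a ribosomal protein name the largest falls were those of Rps15a-ps4 (1.49 ± 0.263, 0.276 ± 0.0772 and 0.342 ± 0.287 CPM) and Rps4x-ps (1.43 ± 0.115, 0.286 ± 0.111 and 0.331 ± 0.218 CPM), followed by Rpl19-ps12 in FUN025/+ and Rpl21-ps8 in FUN025/FUN025 mice. The edgeR adjusted p of these 8 genes lay between 9.64e-07 and 0.0209 where they were called. Most of these levels are near 1 CPM, where a library holds few counts of a gene.

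Of the genes that work beside the members, Fau, which encodes a ubiquitin-like protein fused to the ribosomal protein RPS30, fell as far as the core genes with large falls. It went from 160.3, 169, 171 and 204 CPM in WT mice to values between 111 and 134 (median 117) in FUN025/+ mice and 112, 114, 126, 129 and 131 in FUN025/FUN025 mice (log2 fold changes -0.54 ± 0.071 and -0.53 ± 0.074, edgeR adjusted p = 6.9e-05 and 0.00011), without overlap. Rack1 (299 ± 18.8, 304 ± 11.97 and 294 ± 14.5 CPM), a scaffold on the small subunit, did not pass the threshold.

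With Fau and Rack1 counted, 5 of 23 other genes with TOP mRNAs fell and 1 rose in FUN025/+ mice, and 7 fell and 2 rose in FUN025/FUN025 mice, where 6.61% and 7.02% of all genes fell and 7.09% and 7.03% rose (medians -0.07 and -0.06). Among those that fell in both were the elongation factor subunits Eef1b2 (-0.26 and -0.29) and Naca, of the nascent-chain complex (-0.32 and -0.29), while Hnrnpa1, an RNA-binding protein, rose (0.28 and 0.30). Of 58 genes of ribosome assembly and ribosomal RNA synthesis, 15 fell in FUN025/+ and 7 in FUN025/FUN025 mice, and 0 rose in either, beside the same shares of all genes (medians -0.07 and -0.06). They included Bysl (-0.41 and -0.39), which acts on the pre-40S particle, Utp3 (-0.32 and -0.22), of the small-subunit processome, and Sbds (-0.28 and -0.21), which helps free the 60S subunit for use. The edgeR adjusted p of the genes named here lay between 9.5e-05 and 0.0254.

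Of 32 translation initiation factors, 6 were lower and 3 higher in FUN025/+ and 6 lower and 2 higher in FUN025/FUN025 mice, the higher ones being near the share of all genes that rose (7.09% and 7.03%) and the lower ones above that of all genes that fell (6.61% and 7.02%). Eif3i fell (-0.31 and -0.33) and the helicase gene Eif4a2 rose (0.21 and 0.21). Of 27 genes of the mTOR and S6 kinase pathway and other regulators, 3 fell and 4 rose in FUN025/+, and 6 fell and 4 rose in FUN025/FUN025 mice, beside the same shares of all genes. Rheb, the small GTPase that activates mTOR complex 1, rose (0.27 and 0.23), and Tsc2, whose product switches RHEB off, fell (-0.17 and -0.21). The edgeR adjusted p of these 4 genes lay between 0.000246 and 0.0102 in the comparisons with WT. Larp4, which encodes an RNA-binding protein, rose (0.23 and 0.34, edgeR adjusted p = 0.0219 and 0.00213), and Akt1s1, which encodes an inhibitor of mTOR complex 1, fell (-0.21 and -0.25, edgeR adjusted p = 0.0119 and 0.00517). The list's largest change was that of the transcription factor gene Mycn, named after its values were seen. It stood at 1.09 ± 0.379, 0.662 ± 0.292 and 0.359 ± 0.185 CPM and fell in FUN025/FUN025 mice (-1.53, edgeR adjusted p = 0.014), while -0.70 in FUN025/+ mice did not pass the threshold (adjusted p = 0.18).

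Several host genes of small nucleolar RNAs, whose spliced transcripts also begin with pyrimidines, fell: 4 of 8 in FUN025/+ and 2 in FUN025/FUN025 mice, with Snhg3 higher in both, where 6.61% and 7.02% of all genes fell. Snhg8 fell farthest, from 19.1 ± 1.69 CPM to 10 ± 0.592 and 10.8 ± 1.76 (-0.93 ± 0.10 and -0.82 ± 0.10, edgeR adjusted p = 7.97e-06 and 4.21e-05). Of 10 nonsense-mediated decay genes, 3 fell in each genotype (Upf1, Upf3a and Smg9, between -0.31 and -0.19), beside the same shares of all genes. Of 11 genes of p53 and ribosomal stress, 1 passed the threshold, Mdm4, which was higher in both (0.20 and 0.19). That is 9.09% of the list, below the 13.7% and 14.0% of all genes that passed. In no list did a gene pass the threshold between FUN025/FUN025 and FUN025/+ mice.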

How the data were processed

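Whole posterior eyecups of 15 mice (4 WT, 6 FUN025/+ and 5 FUN025/FUN025, grouped by the labels) were sequenced as 1 paired-end, poly(A)-selected library each. The authors deposited raw counts per Ensembl gene. The submitters' processing notes name FastQC 0.11.8, Trimmomatic 0.39, HISAT2 2.1.0, SAMtools and featureCounts 2.0.0 with GRCm38. Strand setting, handling of reads that match several genes and batches are not given in the sources used here, so near-identical copies, overlapping and antisense genes are uncertain. Total counts were 10903183 to 20029919.

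From these counts, genes that passed filterByExpr and were not in the lowest 15% by variance of log2 CPM were fitted together over all 3 genotypes with edgeR 4.0.16 (TMM scaling, robust quasi-likelihood test, R 4.3.3), with Benjamini-Hochberg adjustment over 18979 genes. Alternatives were other scalings and filters, DESeq2 1.42.0, thinning to equal depth, GC and length offsets, marker covariates, a replicate block, copies counted together and leaving out each mouse. The scaling and the test, but not the filters, were run on simulated data (82.5% of 200 genes changed by 2-fold recovered for FUN025/FUN025 against WT). This does not show how well the smaller changes of most core genes are recovered. The text names the paralogues and their partners, Rplp0, Rpsa, Rps6, Rpl5, Rpl11, the core genes with the largest changes, up to 4 called genes of each other list by adjusted p, and the pseudogenes with the largest changes. Other genes with values in the text, such as Rplp1, Rpl9, Rps27a, Gm12013 and Rps10-ps2, were chosen after their values were seen. The members and gene lists were chosen with earlier results of these data known. Transcripts are from GENCODE M21 and starts from RefSeq on GRCm38.p6. Starts of several members, among them Rps29 and Rpl21, and protein sequences were not used here. Some genes of the lists are not reported here.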

Additional observations from a re-analysis of the deposited data

Results flagged for a closer look

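Each value here stood apart from the other mice of its genotype by Dixon's ratio at the 95% level. Chance gives such a value in about 1 of 20 groups, and 3 of the 93 groups of named members had one. Rps6 stood at 248 CPM in FUN025/+ replicate 6, with the other FUN025/+ mice between 222 and 231 CPM. Rps29 stood at 90.8 CPM in FUN025/FUN025 replicate 1, with the others between 81.6 and 83.1 CPM, all below the WT mice. Rps12-ps3 stood at 40.4 CPM in WT replicate 4, with the other WT mice between 36.1 and 36.7 CPM.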

How the results depend on the processing

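Each comparison was fitted under 14 other settings and without each of the 15 mice. The count of core genes that fell moved beyond 1.5 times the reported count under 1 setting, muscle and rod covariates in FUN025/+ (17), and their median then stood at -0.28 in FUN025/+ and -0.25 in FUN025/FUN025 mice. Of all 18979 genes 121 and 302 fell under that setting, beside 1255 and 1332 without the covariates. The count that rose was 0 in both genotypes with these covariates, 6 and 5 with the exonic length offset, 5 in FUN025/FUN025 with the GC offset, and 7 and 7 with copies counted together, a setting added after the data were seen. Thinned to equal depth, 31 and 28 fell. No core gene passed between the mutant genotypes under any setting (0 under all 14 settings, and 0 without any mouse).

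Without single mice, 24 to 35 core genes fell and 3 to 4 rose in FUN025/+ (median -0.18 to -0.07), and 21 to 35 fell and 3 to 4 rose in FUN025/FUN025 mice (median -0.18 to -0.07). The median between the mutant genotypes ranged from -0.00 to 0.03.

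The replicate numbers of the labels did not pair the mice (correlations of deviations from -0.38 to 0.13). With the number as a block, 28 and 25 core genes fell, 3 and 3 rose, and the medians were -0.14 and -0.13 in FUN025/+ and FUN025/FUN025 mice, with 0 called between them. Under the block the values near 0 of Rpl7l1 (-0.027 and -0.024), Rps6 in FUN025/+ (-0.016), Rpsa in FUN025/FUN025 (9.73e-05) and Rplp0 between the mutants (0.025) changed sign, Rpl22 in FUN025/FUN025 mice lost its call (-0.15) and Rpl3l in FUN025/FUN025 mice gained one (-0.76).

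The other changes of sign were also in values that were not called. With muscle and rod covariates Rpl39l stood at -0.72 in FUN025/FUN025, Rpl3 at -0.0040 and -0.0034, Rpl7 at -0.013 in FUN025/+, Rps6 at -0.041 in FUN025/+, Rpl5 at -0.077 and -0.082, and Rpl11 at -0.25 and -0.20. With the GC offset Rpl7 stood at -0.026 and -0.0024, Rpl5 at -0.039 and -0.051, and Rpl7l1 at -0.0032 in FUN025/FUN025. Rpsa in FUN025/FUN025 stood at 0.0034 with RLE factors, 0.018 with upper quartile factors, 0.0034 under DESeq2, 0.0022 with 10 counts in every library, 0.018 with protein-coding genes alone, 0.025 thinned, 0.013 with the GC offset, 0.029 with the length offset, 0.0035 with copies together and 0.0033 with only the genotypes compared, and in FUN025/+ at 0.0056 thinned and 0.015 with the length offset. Without single mice these ranged over -0.16 to 0.27 (Rpl39l in FUN025/FUN025), -0.0047 to 0.21 (Rpl3l between the mutants), -0.010 to 0.041 (Rpl7l1 in FUN025/+), -0.026 to 0.035 (Rpl7l1 in FUN025/FUN025), -0.0054 to 0.046 (Rpl7 in FUN025/+), -0.031 to 0.026 (Rplp0 between the mutants), -0.065 to 0.023 (Rpsa in FUN025/+), -0.046 to 0.041 (Rpsa in FUN025/FUN025), -0.013 to 0.058 (Rps6 in FUN025/+) and -0.0099 to 0.094 (Rpl11 in FUN025/+). Of the named members' values under the 14 settings, 765 kept their direction and their side of the threshold, 17 lost a call and 7 gained one. The 765 include the setting without the variance filter. It fitted the same number of genes (18979) with the same number of calls, so it could not move a value. Rpl3l in FUN025/+ lost its call without a low-count filter, with the GC offset, with the covariates and with only the genotypes compared, and in FUN025/FUN025 gained one under DESeq2 and with only the genotypes compared. The causes were not tested. Depth limits Rpl39l, Rpl36al, Rpl9-ps6 and most pseudogenes, at a few CPM or less.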

Other observations

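Several other marker lists of the eyecup were tested too. None of 5 melanocyte and 6 fibroblast markers was called in either comparison with WT. The 6 retinal neuron markers tested lay below 0 in both genotypes (medians -0.995 and -1.02 on the log2 scale), as did the 5 red blood cell markers (medians -1.16 and -0.41), but none was called. Their sums overlapped between groups and were highest in WT replicate 2 (retinal neuron, 217 CPM, with a WT median of 69.7) and in WT replicate 4 (red blood cell, 297 CPM, with a WT median of 95.7). Among 7 macrophage markers Cd68 was higher in FUN025/FUN025 mice (33.1 ± 3.78 CPM in WT and 41.3 ± 3.99 in FUN025/FUN025). Of 6 lens markers, 5 lay above 0 in both genotypes (medians of the 6 1.15 in FUN025/+ and 1.996 in FUN025/FUN025 mice) without passing the threshold, Cryaa ranging from 0.308 to 115 CPM among FUN025/FUN025 mice, and Cryab, which other tissues also express, was lower in FUN025/+ mice (289.96 ± 9.8 and 248 ± 13.3 CPM). The endothelial markers that fell in both mutant genotypes were Cdh5 (-0.27 and -0.50 on the log2 scale) and Plvap (-0.33 and -0.63), with edgeR adjusted p from 0.00033 to 0.0483. What part these cells had in the ribosomal protein values was not tested.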
